A study of Mus musculus with 4 samples.

Results

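Pou2af1 encodes OCA-B (also called BOB.1 or OBF-1), a transcriptional coactivator, and Pou2f1 and Pou2f2 encode Oct-1 and Oct-2, the POU-domain factors that bind the octamer element of DNA and recruit it. The members were taken by name from these 3 genes, using every probe set that the array annotation assigned to a single one of them. Of the 3 genes, 2 had probe sets, with 1 for Pou2af1 and 3 for Pou2f2, out of 18193 genes on the array. Pou2f1 had 0 probe sets assigned in the annotation used here and was not analysed here. The trio was chosen because Pou2af1 differed strongly between the sorted fractions in these same arrays, so the values of the members are given as a description, with no test.

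The arrays hold RNA from common lymphoid progenitors (CLP), bone marrow cells from which B and T lymphocytes and natural killer cells arise. CLP_RAGhigh (2 arrays) and CLP_RAGlow (2 arrays) are fractions sorted for a high or a low level of GFP, with 2000 cells per sample, and all 4 came from marrow of C57Bl6 adults aged 8 to 12 weeks. The labels do not describe the GFP reporter, so whether it alters a Rag gene is not given in the sources used here, and they do not say whether replicates came from separate animals. Biotin-labelled product of a dual RNA amplification was measured on Affymetrix MOE430_2 arrays, and values are log2 of the deposited RMA intensity.

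The octamer is an element of immunoglobulin promoters and enhancers. Oct-1 is made in most cell types and Oct-2 mainly in B cells and some neural cells, and both hold the DNA through a bipartite POU domain. OCA-B does not bind the octamer stably alone but clamps the POU domain on it, and it is best known in B cells, where germinal centres do not form without it.

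The 250 bases before the RefSeq start of Pou2af1 (GRCm38.p6, chr9:51213440-51213689, plus strand) are shown because the coactivator gene's own promoter is the one whose transcript differed most between the fractions. Capitals mark TGCAAAT, which is the octamer ATGCAAAT without its first base, and TGACGT, which is the cyclic AMP response element TGACGTCA without its last 2 bases. Both shortened motifs were picked after the sequence was seen.

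Pou2af1: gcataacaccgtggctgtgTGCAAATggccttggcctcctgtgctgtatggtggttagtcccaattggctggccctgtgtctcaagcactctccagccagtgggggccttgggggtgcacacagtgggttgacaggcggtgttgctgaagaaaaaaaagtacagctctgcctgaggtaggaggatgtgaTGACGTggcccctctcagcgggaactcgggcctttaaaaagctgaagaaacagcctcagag

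On both strands, the whole octamer ATGCAAAT was not in this window, nor in the window of Pou2f2 or the 3 windows of Pou2f1. TGCAAAT lay 231 bases and TGACGT 61 bases before the start of Pou2af1. Among 32817 promoter windows of the same length, 1.60% held the octamer, 3.57% held TGCAAAT and 6.46% held TGACGT. Read as an octamer with 1 mismatch, GTGCAAAT, the Pou2af1 match is of a kind that 16.6% of windows held, counting those with at most 1 mismatch. The full response element TGACGTCA, in 1.55% of windows, and the palindromic EBF motif, in 0.780%, were not in the Pou2af1 window, while the E box CANNTG, in 66.2%, was found there at 229 bases before the start, where it overlaps TGCAAAT, and at 189 bases. These matches describe letters and do not show binding.

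The Pou2af1 probe set (1416957_at) was bright on both CLP_RAGhigh arrays and at the bottom of the scale on both CLP_RAGlow arrays. Its linear intensity was 286 on CLP_RAGhigh replicate 1 and 251 on CLP_RAGhigh replicate 2, against 4.92 on CLP_RAGlow replicate 1 and 3.37 on CLP_RAGlow replicate 2. On the CLP_RAGhigh arrays 89.6% and 89.1% of all probe sets lay at or below it. On the CLP_RAGlow arrays the shares were 14.1% and 1.81%, so its low values lay in the range of the dimmest probe sets, where RMA does not separate absence from a weak signal.

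On the log2 scale the mean of Pou2af1 was 8.07 ± 0.13 for the CLP_RAGhigh arrays and 2.03 ± 0.38 for the CLP_RAGlow arrays (SD, n = 2 each). The difference was 6.04 ± 0.35 (SE from the limma fit over all genes), or 65.7-fold. It was the highest of 18193 genes in either direction, and only 2 genes were 5 or more log2 units higher in CLP_RAGhigh, the other being Gpat3. The size depends on how the dim end is read. With 32 added to each linear value before log2 the difference was 3.05, or 8.30-fold, and with every value raised at least to its array's median, a setting chosen after the data were seen, it was 4.18, or 18.1-fold. Leaving out each array in turn gave 5.77 to 6.31. The gene has a single probe set, so no other probe set could be set beside it. As these are sorted bulk samples, fewer cells with the transcript and less transcript per cell cannot be told apart.

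**Figure D1:**
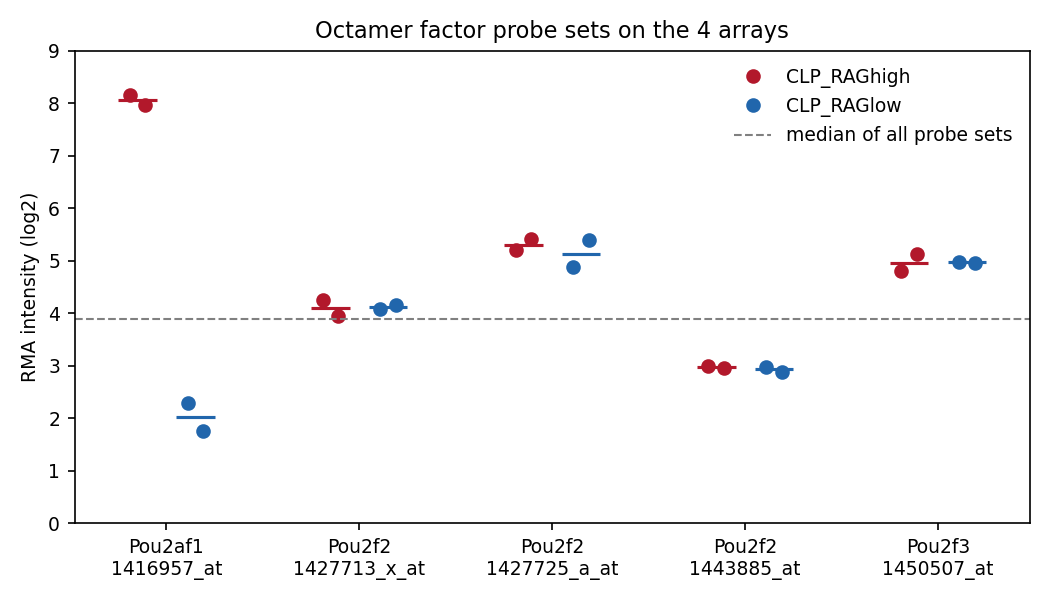
Log2 RMA intensity (vertical axis) of each probe set of Pou2af1 and Pou2f2, and of the paralogue Pou2f3, on the 4 arrays; points are arrays, short bars are group means (n = 2) and the dashed line is the median of all probe sets, 3.88. Pou2af1 separates the fractions (8.16 and 7.97 against 2.30 and 1.75), while the points of both fractions overlap in the other 4 probe sets.

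Pou2f2, the Oct-2 gene, did not separate the fractions on any of its 3 probe sets. The brightest, 1427725_a_at, had log2 intensities of 5.21 and 5.41 on the CLP_RAGhigh arrays and of 4.87 and 5.39 on the CLP_RAGlow arrays. The group means were 5.31 ± 0.14 and 5.13 ± 0.36 (SD, n = 2 each), with a difference of 0.18 ± 0.35 (SE). The CLP_RAGhigh values lay between and just above the CLP_RAGlow values, and CLP_RAGlow replicate 1 was the lowest array. Without that array the difference was -0.08, and without CLP_RAGlow replicate 2 it was 0.44.

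The second Pou2f2 probe set, 1427713_x_at, whose suffix marks probes that can pick up other transcripts, had log2 intensities of 4.26 and 3.95 in CLP_RAGhigh and of 4.09 and 4.15 in CLP_RAGlow, a difference of -0.01 ± 0.28. The third, 1443885_at, had 3.0 and 2.96 against 2.98 and 2.88, a difference of 0.05 ± 0.18, and lay below the median of all probe sets, 3.88, on every array. Over the 4 arrays the 3 probe sets spanned 0.54, 0.31 and 0.12 log2 units, against 6.40 for Pou2af1. The mean of the 3 gave a difference of 0.07. Of the 18193 genes, 9787, or 53.8%, had a larger difference in size than the brightest Pou2f2 probe set.

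The coactivator and the measured octamer-binding partner thus had different patterns over the same 4 arrays. The brightest Pou2f2 probe set had a like, modest linear intensity on all of them, 29.3 to 42.5, and Pou2af1 was bright on the CLP_RAGhigh arrays alone. The paralogue Pou2f3 lay near that level, at 27.8 to 34.9. Whether either signal was above background was not tested, so the flat Pou2f2 values do not show that its transcript was present. The arrays give no estimate of protein, and the intensities of different probe sets are not a measure of which of the genes had more transcript.

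**Figure D2:**
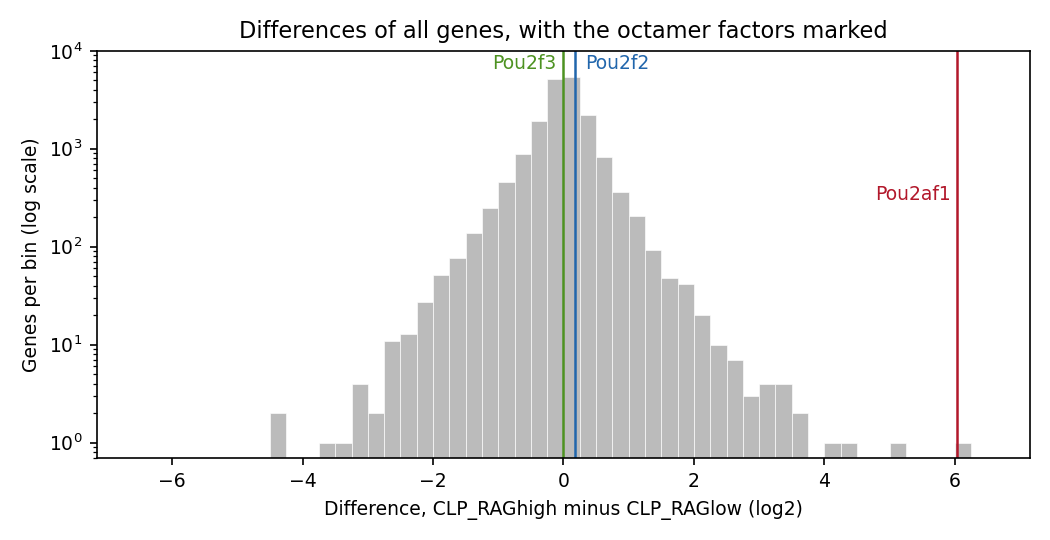
Number of genes (vertical axis, log scale) by log2 difference, CLP_RAGhigh minus CLP_RAGlow (horizontal axis, bins of 0.25), for 18193 genes with the brightest probe set each; coloured lines mark Pou2af1 (6.04), Pou2f2 (0.18) and Pou2f3 (-0.01). Pou2af1 lies at the right end, and Pou2f2 and Pou2f3 lie in the bulk.

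A check of the labels and of the arrays bears on these values. Rag1, a subunit of the V(D)J recombinase, had log2 intensities of 10.92 and 10.62 in CLP_RAGhigh and of 7.72 and 8.53 in CLP_RAGlow. Of 6 CLP markers measured, the mean was higher in CLP_RAGhigh for 3 and lower for 3. Il7r, Flt3 and Dntt, the 3 with a higher mean, were bright in both fractions, with means of 10.42 to 13.48. Kit, Cd27 and Cd93 had means of 7.70, 8.21 and 10.85 in CLP_RAGhigh and of 7.99, 8.64 and 10.91 in CLP_RAGlow. Both CLP_RAGhigh arrays were above for Il7r, with a difference of 0.81 ± 0.39 (SE), and for Dntt, with 0.06 ± 0.06. Both were below for Cd27, with -0.43 ± 0.31. The intensity of 3' over 5' probe sets, a sign of how far amplification favoured 3' ends, was 9.62 to 24.5 for Actb and 10.6 to 20.0 for Gapdh, and each range was spanned by CLP_RAGhigh replicate 2 at the low end and CLP_RAGlow replicate 2 at the high end. The immediate early gene Fos was at 12.27 on CLP_RAGhigh replicate 1 and at 5.17 to 7.28 on the other arrays. CLP_RAGlow replicate 2, with the highest 3' to 5' ratios, also had the lowest Pou2af1 value, 1.75. The part of these array differences in the Pou2af1 values was not tested.

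All genes were compared with limma, with Benjamini-Hochberg adjustment over 18193 genes. No gene passed an adjusted p of 0.05, with 0 (0%) higher and 0 (0%) lower in CLP_RAGhigh. At an unadjusted p under 0.05 there were 428 and 535. The mean was higher in CLP_RAGhigh for 50.6% of genes. The CLP_RAGhigh arrays were both above the CLP_RAGlow arrays for 15.4% of genes and both below for 15.8%, and these shares are the background for the counts of genes given here. No gene of the lists that follow passed over all genes.

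By Euclidean distance between profiles centred on each gene's mean over the 4 arrays, the 6 genes nearest to Pou2af1 were Gpat3, Map9, Scn4b, Zfp563, Ifi213 and Ebf1. Since the measure uses the contrast on which Pou2af1 was chosen, all 6 were also high in CLP_RAGhigh by construction. Gpat3, an enzyme of triglyceride synthesis, was the nearest at a distance of 1.21 log2 units, with log2 intensities of 7.92 and 7.79 in CLP_RAGhigh and of 2.58 and 3.02 in CLP_RAGlow. Like Pou2af1 it has a single probe set and lay below the median of all probe sets on both CLP_RAGlow arrays. Map9, Scn4b and Zfp563 also did so, at distances of 1.93, 2.13 and 2.6.

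Ifi213, of the PYHIN family of DNA sensors, and Ebf1, the factor that sets up the early B-cell programme, were farther off, at 2.79 each, and were above that median in CLP_RAGlow. Ebf1 had log2 intensities of 9.28 and 9.85 in CLP_RAGhigh and of 5.24 and 6.59 in CLP_RAGlow. The CLP_RAGlow arrays were in the opposite order for Pou2af1, with replicate 1 above replicate 2 at 2.30 and 1.75, and so were the CLP_RAGhigh arrays. Probe sets of 3 of the 6 genes gave unlike differences. The lowest and highest differences were 0.12 and 4.34 for Map9, -0.26 and 3.36 for Ifi213, and -0.09 and 3.69 for Ebf1.

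**Figure D3:**
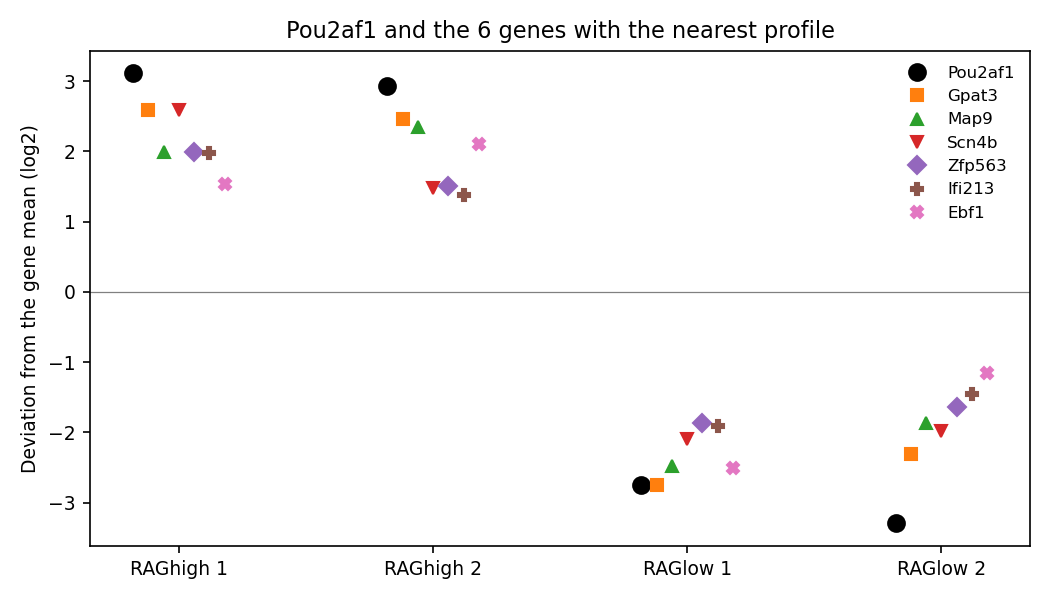
Deviation of log2 intensity from each gene's mean over the 4 arrays (vertical axis) for Pou2af1 and the 6 genes nearest to it, by array (horizontal axis). All 7 genes lie above their mean on both CLP_RAGhigh arrays and below it on both CLP_RAGlow arrays, with Pou2af1 the farthest out on CLP_RAGlow replicate 2.

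Genes beside Pou2af1 on the chromosome did not share its pattern. Of the 5 protein-coding genes on each side in RefSeq's GRCm38.p6 order, chosen by position alone, 8 were measured, and their differences ran from -0.38 to 0.67. They include 1810046K07Rik, which encodes a related coactivator that partners with Pou2f3 in tuft cells. It had log2 intensities of 3.18 and 3.47 in CLP_RAGhigh and of 3.38 and 3.14 in CLP_RAGlow, below the median of all probe sets throughout. Layn, a hyaluronan receptor, was the only one of the 8 with both CLP_RAGhigh arrays above, at 0.67 ± 0.40 (SE), and Fdx1, a mitochondrial electron carrier, and Arhgap20 had both below, at -0.38 ± 0.29 and -0.22 ± 0.16. Colca2, which encodes the other coactivator of this kind, was not analysed here.

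The other POU factors differed by at most 0.34 in size on the brightest probe set of each gene, though a dimmer probe set reached 0.41. Of 15 genes named, 10 were measured, all of them POU factors. The 15 also hold the coactivator genes Pou2af2 and Pou2af3, which were not found under those names. The coactivator gene 1810046K07Rik, given above, is not counted among the 10. The mean was higher in CLP_RAGhigh for 6 of them and lower for 4, 1 had both arrays above and 1 below, and the median difference was 0.09 (-0.08 without CLP_RAGhigh replicate 2), against 0.00 for all genes. The mean of 5 of the 10 lay below the median of all probe sets. Pou2f3, the paralogue of epidermis and tuft cells, had log2 intensities of 4.79 and 5.13 in CLP_RAGhigh and of 4.98 and 4.96 in CLP_RAGlow. Pou5f2 differed by 0.34 ± 0.36 with both CLP_RAGhigh arrays above, and the neural factor Pou3f3 by -0.19 ± 0.20 with both below. Pou4f3 and Pou5f1, the pluripotency factor Oct-4, differed by 0.17 ± 0.25 and 0.14 ± 0.28 with overlapping arrays.

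Proteins that work with octamer factors went in both directions. Of 17 cofactor genes named, 16 were measured. The mean was higher in CLP_RAGhigh for 9 and lower for 7, 3 had both arrays above and 5 below, and the median was 0.10 (-0.01 with probe sets averaged and -0.16 without CLP_RAGhigh replicate 1). Parp1, which modifies proteins with ADP-ribose at DNA breaks and binds Oct-1, had log2 intensities of 11.88 and 11.81 in CLP_RAGhigh and of 10.91 on each CLP_RAGlow array. Its difference was 0.93 ± 0.13, and on this probe set its arrays differed by far less within a fraction than between fractions. Its 4 probe sets were unlike, with differences from 0.0045 to 1.37, and their average gave 0.89.

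The SNAP complex joins Oct-1 at the promoters of small nuclear RNA genes. Snapc4, its largest subunit, differed by 1.03 ± 0.42 and Snapc3 by 0.83 ± 0.45, both with the CLP_RAGhigh arrays above. With probe sets averaged the difference was 0.68 for Snapc4 and 0.25 for Snapc3. Snapc5 differed by -0.53 ± 0.18 with both CLP_RAGhigh arrays below, but it was dim in both fractions, and with the offset of 32 its difference was -0.06.

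Of the genes for turnover of OCA-B, 3 of 4 named were measured. Siah1a encodes a ubiquitin ligase that targets OCA-B for degradation. It had log2 intensities of 7.37 and 6.62 in CLP_RAGhigh and of 8.33 and 7.90 in CLP_RAGlow. Both CLP_RAGhigh arrays were the lower ones, with a difference of -1.12 ± 0.41 (-0.60 with its 3 probe sets averaged). The related ligase gene Siah2 varied more within each fraction than between them, at 6.06 and 4.65 against 6.28 and 4.26. Syk, a kinase of the B-cell receptor that has been tied to OCA-B stability, differed by 0.54 ± 0.26 on its brightest probe set and by -0.08 with probe sets averaged. The median of the 3 genes was 0.09. It had no stable direction, at -0.08 with probe sets averaged, -0.62 without CLP_RAGhigh replicate 1, -0.93 without CLP_RAGlow replicate 2, 0.71 without CLP_RAGhigh replicate 2 and 0.28 without CLP_RAGlow replicate 1.

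Among 6 factors reported to act at the Pou2af1 locus, 4 had a higher mean in CLP_RAGhigh, and 3 had both arrays above and 0 below. The median was 0.51 (0.31 with probe sets averaged, 1.06 without CLP_RAGhigh replicate 2 and 0.18 without CLP_RAGhigh replicate 1). Ebf1 had means of 9.57 ± 0.40 and 5.92 ± 0.95 (SD, n = 2 each). Foxo1, a forkhead factor of early B cells, had log2 intensities of 10.15 and 9.0 in CLP_RAGhigh and of 7.74 and 8.82 in CLP_RAGlow, a difference of 1.30 ± 0.53. Its 4 probe sets had differences from -0.09 to 2.52. Pax5, the B-cell commitment factor, had 5.34 and 4.15 against 3.80 and 3.66, a difference of 1.01 ± 0.44 that was 0.41 with the offset of 32. The other of its 2 probe sets differed by 0.19. Xbp1, which drives the secretory programme, and Creb1, the factor of the cyclic AMP response element, had overlapping arrays and differences of -0.16 ± 0.17 and -0.20 ± 0.28, and Tcf3, the E2A gene, differed by 0.01 ± 0.48. Ebf1, Pax5 and Foxo1 are known from earlier results on these arrays, so they are no independent evidence of a direction.

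The reported targets of OCA-B and Oct-2 went in both directions. Of 12 genes the mean was higher in CLP_RAGhigh for 6 and lower for 6, 2 had both arrays above and 3 below, and the median was 0.00, as over all genes. For 8 of the 12 the mean lay below the median of all probe sets, and with dim genes left out the list's median was 0.22. Cd79b, which encodes the CD79B signal transducer of B cells, had log2 intensities of 8.18 and 7.74 in CLP_RAGhigh and of 6.84 and 7.22 in CLP_RAGlow, a difference of 0.93 ± 0.37. Btk, a kinase of the same pathway, was the other gene with both arrays above, at 0.46 ± 0.29.

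Bcl2, the survival factor, lay the other way, with log2 intensities of 8.52 and 8.63 in CLP_RAGhigh and of 9.43 and 9.33 in CLP_RAGlow, a difference of -0.81 ± 0.26 (-1.55 with its 5 probe sets averaged). Cxcr5, the chemokine receptor of B-cell follicles, differed by -1.23 ± 0.62, with CLP_RAGlow replicate 2 at 4.93 and the other arrays at 2.60 to 2.95, and was -0.37 with the offset of 32. Ms4a1, which encodes CD20, was dim on all arrays and differed by -0.39 ± 0.22 (-0.08 with the offset). Cd36, Crisp3 and Il6 were also dim throughout, with log2 intensities of at most 2.26.

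**Figure D4:**
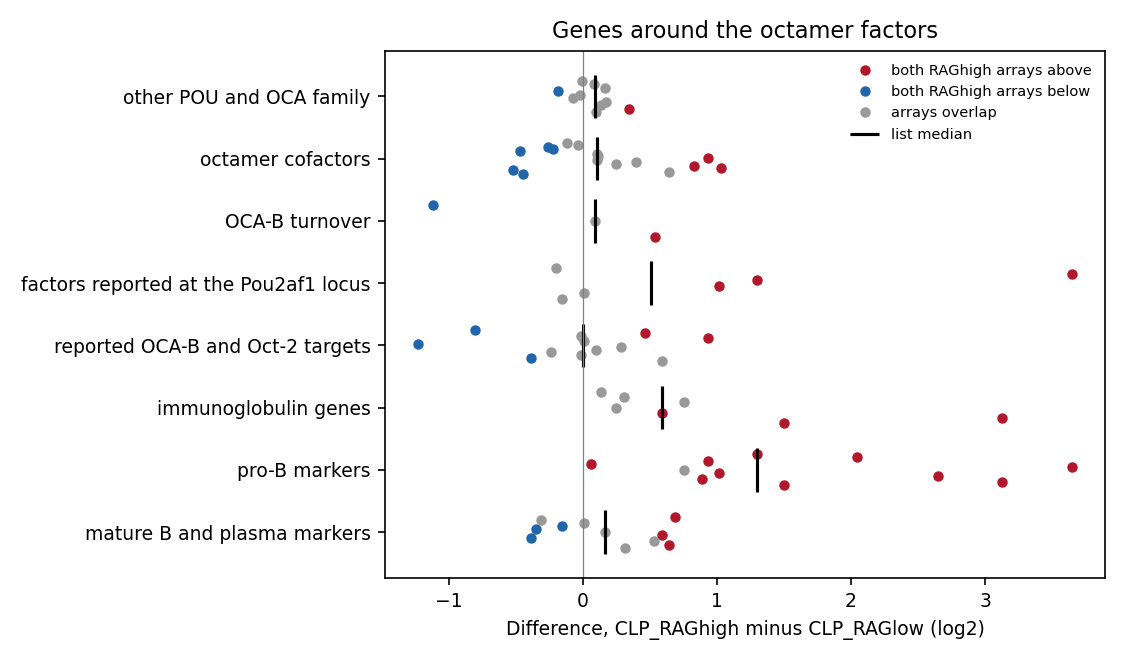
Log2 difference, CLP_RAGhigh minus CLP_RAGlow (horizontal axis), of each measured gene in the 8 gene lists (rows); colours give whether both CLP_RAGhigh arrays lie above, below or among the CLP_RAGlow arrays, and black bars are list medians. The reported targets spread around 0.00, and the pro-B markers lie to the right with a median of 1.30.

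Immunoglobulin genes and their surrogate light chains are the classical setting of the octamer. Of 14 named, 7 were measured, all 7 with a higher mean in CLP_RAGhigh, and 3 had both arrays above and 0 below. The median was 0.58 (0.32 with probe sets averaged and 0.34 without probe sets of suffix _x_at or _s_at). Vpreb1, Vpreb3 and Igll1 are also among the pro-B markers below, so these lists are not independent. Vpreb1, part of the surrogate light chain, had log2 intensities of 10.72 and 10.40 in CLP_RAGhigh and of 7.53 and 7.32 in CLP_RAGlow. Vpreb3 had 5.64 and 6.55 against 4.68 and 4.51, and the other surrogate chain gene Igll1 had 5.22 and 6.28 against 5.37 and 4.62, which overlap. The other Igll1 probe set differed by -0.11. The heavy chain gene Ighm was bright in both fractions, at 12.14 and 11.24 against 11.18 and 11.59, with overlapping arrays. Jchain, a gene of antibody-secreting cells, differed by 0.58 ± 0.26 but was dim, and its difference with the offset of 32 was 0.12.

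Octamers occurred in the promoter windows of 3 list genes, Vpreb3, Blnk and Gadd45a, and stretches of 70 bases of these (GRCm38.p6, 5' to 3' on the gene's strand) are shown since they are the whole octamers found near the genes described here. Capitals mark ATGCAAAT or its reverse complement ATTTGCAT. The stretches are chr10:75948229-75948298 (plus strand) for Vpreb3, chr19:40994308-40994377 (minus strand) for Blnk and chr6:67037461-67037530 (minus strand) for Gadd45a.
Vpreb3: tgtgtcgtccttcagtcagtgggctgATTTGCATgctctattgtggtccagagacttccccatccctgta
Blnk: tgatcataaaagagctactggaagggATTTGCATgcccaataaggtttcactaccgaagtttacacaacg
Gadd45a: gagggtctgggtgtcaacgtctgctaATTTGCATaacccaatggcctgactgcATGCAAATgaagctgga

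The 3 genes with these octamers did not share a pattern. Vpreb3, which assists assembly of the pre-B-cell receptor, has its octamer 45 bases before the start and differed by 1.5 ± 0.42. Blnk, an adaptor of B-cell receptor signalling, has it 130 bases before the start, and its log2 intensities were 12.14 and 11.30 in CLP_RAGhigh against 10.25 and 10.59 in CLP_RAGlow. Gadd45a, a stress gene regulated by Oct-1, carries a pair of octamers, at 97 and 70 bases. It had 4.08 and 2.42 in CLP_RAGhigh against 2.51 and 3.42 in CLP_RAGlow, which overlap.

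Across the array, 227 genes had an octamer in a promoter window. Their median difference was 0.03, against 0.00 for the 14433 genes with a window in the table. Both CLP_RAGhigh arrays lay above for 17.2% of them and below for 15.9%, against 15.6% and 15.7% of all genes with a window. Vpreb1 and Rag1 had windows without an octamer, and Ighm and Cd79b had no window in the table.

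Markers of later B cells were set beside Pou2af1, since its transcript is abundant in mature B cells and plasma cells. Of 11 measured pro-B markers of 12 named, all 11 had a higher mean in CLP_RAGhigh and 10 had both arrays above, with a median of 1.30. Cd79a, the partner of Cd79b in the receptor, had log2 intensities of 6.37 and 5.85 in CLP_RAGhigh and of 4.37 and 3.76 in CLP_RAGlow. The summed intensity of the 11 genes was 18592 to 21548 in CLP_RAGhigh and 12889 to 13891 in CLP_RAGlow. Most of each sum was Dntt, which is also a CLP marker. It was at 13.39 to 13.50 on all 4 arrays and differed by 0.06, so the gap between the sums came mainly from the other genes. Among those, the brightest weigh most in a sum. The list holds genes known from these arrays, Rag1 and Rag2 among them, so it is no independent evidence of its direction.

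Mature B and plasma cell markers went in both directions. Of 12 named, 11 were measured. The mean was higher in CLP_RAGhigh for 7 and lower for 4, 3 had both arrays above and 3 below, and the median was 0.17. That median was 0.02 without CLP_RAGhigh replicate 1, -0.0058 without CLP_RAGhigh replicate 2, 0.087 and 0.091 without CLP_RAGlow replicates 1 and 2, 0.079 with the offset of 32 and 0.40 with dim genes left out. Below the array median on all 4 arrays were 7 of the 11. The summed intensity was 1603 to 1748 in CLP_RAGhigh and 1292 to 1303 in CLP_RAGlow, most of it from Sdc1 and H2-Aa, at log2 intensities of 8.88 to 9.85. The defining surface genes Ms4a1, Cr2 (complement receptor) and Fcer2a (CD23) had log2 intensities of at most 3.32 on any array. Cd22, an inhibitory receptor of B cells, differed by 0.68 ± 0.27 (0.24 with the offset of 32), and by 0.17 on its other probe set. Sdc1, a proteoglycan of plasma cells and B-cell precursors, differed by 0.64 ± 0.26, with its 4 probe sets running from -0.05 to 0.83. Fcmr, the IgM Fc receptor, differed by -0.36 ± 0.19 (-0.04 with the offset).

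Markers of other lineages were checked in the same way. The 4 measured T-cell markers summed to 83.9 and 93.2 in CLP_RAGhigh and to 87.7 and 86.0 in CLP_RAGlow. The erythroid factor Klf1 was higher on both CLP_RAGhigh arrays, at 6.94 and 6.05 against 5.24 and 3.69, while the globin gene Hba-a1 was dim on all 4 at 2.94 to 3.28. Of 4 granulocyte and monocyte markers, S100a8 was at 3.81 on CLP_RAGlow replicate 2 and at 9.60 to 10.15 on the other arrays. Mpo was bright throughout, at 10.70 to 11.03. Elane differed by 0.41 ± 0.30 with both CLP_RAGhigh arrays above, and Lyz2 by -0.51 ± 0.49 with overlapping arrays. Of 3 natural killer markers, Nkg7 was at 9.12 to 9.46 and differed by 0.19 ± 0.24 with both CLP_RAGhigh arrays above. Ncr1 and Gzmb were dim and differed by -0.07 and 0.10 with overlapping arrays. Of 4 plasmacytoid dendritic markers, 3 had a lower mean in CLP_RAGhigh and the median was -0.52, with Bst2 at -0.90 ± 0.39, Ccr9 at -0.76 ± 0.49, Tcf4 at -0.28 ± 0.36 and Siglech at 0.31 ± 0.31. The part of these lineages in the Pou2af1 values was not tested.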

How the data were processed

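The deposited values are expression intensities that the authors made with RMA (per the labels and the design text), 1 per probe set, and their range fits a linear scale. The software is not given in the sources used here, nor is a genome build. Log2 was taken. Of 45101 rows, 64 control probe sets, 932 assigned to several genes and 9160 to no gene here were left out, and 34945 remained. For each of 18193 genes the probe set with the highest mean was used. A gene is called dim where a mean is below 3.88, the log2 median over all probe sets. Groups come from the sample titles.

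limma 3.58.1 in R 4.3.3 (lmFit, eBayes with trend, two-sided; 2 residual and 3.75 prior degrees of freedom) was fitted to all genes and tested on simulated data. Standard errors come from it. The sample titles call the replicates biological, but no label ties them to separate animals. The p-values thus cover just the spread of these arrays, part of which may be technical. The number of arrays limits the precision. Figures were drawn with matplotlib 3.10.9.

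The members and lists were chosen with earlier results of these data known. Named genes are the members, the 4 smallest p-values of each list, the 6 nearest profiles and list genes whose promoter is printed. Others (Btk, Creb1, Tcf3, Ighm, Cd36, Crisp3, Il6, Cr2, Fcer2a and the markers and neighbours) were named after their values were seen. Promoter sequences are from RefSeq, GRCm38.p6, trimmed to the 250 bases before the start.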

Additional observations from a re-analysis of the deposited data

How the results depend on the processing

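The Pou2af1 difference was 3.05 with the offset of 32, 4.18 with values raised to the array median, a setting chosen after the data were seen, and 5.77 to 6.31 with 1 array left out. That of Pou2f2 was -0.08 to 0.44 with 1 array left out. Genes higher in CLP_RAGhigh at an adjusted limma p under 0.05 numbered 2 with probe sets averaged, 2 after quantile normalization again and 1 with dim genes left out, and genes higher in CLP_RAGlow numbered 1 after quantile normalization again. The labels give both fractions replicates 1 and 2 but do not say that a number is shared; the deviations of same-numbered arrays correlated at -0.02 across genes, and with the replicate number as a block the counts were 5 for CLP_RAGhigh and 2 for CLP_RAGlow. The block left the differences of Pou2af1 (6.04) and Pou2f2 (0.18) as they were by construction.

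With the offset of 32 the median was 0.85 for pro-B markers and 0.079 for mature B and plasma markers. With dim genes left out it was 0.22 for the reported targets and 0.40 for mature B and plasma markers. With 1 array left out, medians ran from -0.076 to 0.17 for other POU genes, -0.16 to 0.14 for cofactors, -0.93 to 0.71 for turnover, 0.18 to 1.06 for factors at the locus, -0.19 to 0.14 for targets, 0.31 to 0.86 for immunoglobulin genes, 1.13 to 1.61 for pro-B markers and -0.0058 to 0.091 for mature B and plasma markers. Genes with both CLP_RAGhigh arrays above then numbered 4912 to 7441 and below 4918 to 7214, since fewer arrays overlap less often, and 0 passed the adjusted threshold in either direction. Of 142 values under an alternative, 113 moved by less than the spread between replicates, or 1.5 times for counts. Part of these 113 could not move by construction, so their number is no measure of robustness. They include the differences and medians under the block and the counts of genes with arrays above or below under the offset. Pou2af1 with probe sets averaged is another, as it has a single probe set.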
